A study of Homo sapiens with 27 samples.

Results

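The cytosolic ribosomal protein genes were described in REH cells given lncRNA-targeting GapmeRs. Members were the protein-coding genes whose symbol is RPL or RPS followed by a number, with an A, X or L suffix allowed, together with RPLP0, RPLP1, RPLP2 and RPSA. Pseudogenes, the RPS6K kinase genes, RPS27L and the RPS4Y genes were left out. This gave 80 members among the 60619 gene identifiers counted, of which 49 encode proteins of the large (60S) subunit or their copies and 31 proteins of the small (40S) subunit. No measured value was used to choose them.

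The cells were REH, an established line of human B-cell precursor acute lymphoblastic leukemia with the ETV6/RUNX1 fusion, so all samples share the background of a single line. GapmeRs are antisense oligonucleotides whose ends carry locked nucleic acid (LNA) bases around a DNA core, so that RNase H cleaves the RNA they bind. It was given at 10 µM without a transfection reagent, and RNA was collected after 72 hours. The 27 samples formed 10 groups. Medium alone had 2 samples (replicates 1 and 2) and a non-targeting GapmeR (NTC) had 3, and these 5 were the controls. For lnc-NKX2-3-1 there were 2 samples of GapmeR1 (replicates 1 and 2) and 3 of GapmeR2. The GapmeRs to lnc-RTN4R-1 and lnc-TIMM21-5 had 3 samples each. For lnc-ASTN1-1 there were 3 samples of GapmeR1 and 2 of GapmeR2 (replicates 1 and 3). Replicates were biological and were treated on different days, according to the methods of the study.

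Ribosomal proteins bind ribosomal RNA in fixed proportions, the large subunit holding the site of peptide bond formation and the small subunit decoding the messenger RNA. The messenger RNAs of nearly all ribosomal proteins start with a C followed by a run of pyrimidines, the 5' terminal oligopyrimidine (TOP) motif, through which their translation follows mTOR activity. Unassembled proteins are mostly degraded, and a few, RPL5 and RPL11 among them, bind MDM2 when ribosome assembly is disturbed, which stabilises p53. Lymphoid precursors divide quickly and make many ribosomes.

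Total counts lay between 14627110 and 22750945 per sample, and between 71.5% and 77.0% of reads were assigned to a gene. Each targeted lncRNA was lower in the cells given its GapmeRs, at 13.1% to 52.2% of its mean level in the controls. Levels are in CPM (counts scaled to a library of 1e6 after TMM normalisation). The lowest percentages were those of lncRNAs already low in the controls. These were lnc-TIMM21-5 (13.1% and 18.4%, controls 1.08 to 2.19 CPM) and lnc-NKX2-3-1 (15.1% and 15.4%, controls 0.326 to 1.26 CPM). With 18.3 CPM or more in the controls, lnc-RTN4R-1 was at 22.5% and 28.0% and lnc-ASTN1-1 at 40.4% and 52.2%. B-lineage precursor markers were present in every sample, with 11 of the 12 expressed and a summed level of 5292 to 7035 CPM, although VPREB1 was at 0. Markers of T cells summed to at most 0.535 CPM and those of erythroid cells to at most 0.057 CPM, and of 4 epithelial or fibroblast markers EPCAM and COL3A1 were at 0, KRT18 at most at 0.069 CPM and COL1A1 at 6.10 to 17.3 CPM in every sample. Of 4 myeloid markers, MPO was at 79.4 to 445 CPM and CSF3R at 6.12 to 30.8 CPM, and LYZ and CD14 were under 1 CPM. The sample of lnc-NKX2-3-1 GapmeR2 replicate 3 stood apart, with 4.53% of its reads unmapped against 2.71% or less in the others. The next highest, lnc-RTN4R-1 GapmeR2 replicate 3 with 2.71%, was the sample with the highest share of counts in members (4.63%).

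Of the 80 members, 78 passed the filter on low counts in every comparison. The other 2 were tissue-restricted copies. RPL3L, the striated muscle copy of RPL3, had 0 to 4 counts per sample, and RPL10L, the copy of RPL10 known from the male germline, had 0 to 1. Together the members held 3.49% to 4.63% of all counts, with a median of 4.13% over the 27 samples. The group means of this share were close to each other. They ran from 3.92% ± 0.114 (SD, n = 3) with lnc-RTN4R-1 GapmeR1 and 3.92% ± 0.410 (SD, n = 3) with lnc-NKX2-3-1 GapmeR2 to 4.45% ± 0.157 (SD, n = 3) with lnc-RTN4R-1 GapmeR2. Medium stood at 4.27% ± 0.269 (SD, n = 2) and NTC at 4.09% ± 0.352 (SD, n = 3). In bulk samples such as these, fewer cells with a transcript and less of it per cell cannot be told apart.

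**Figure D1:**
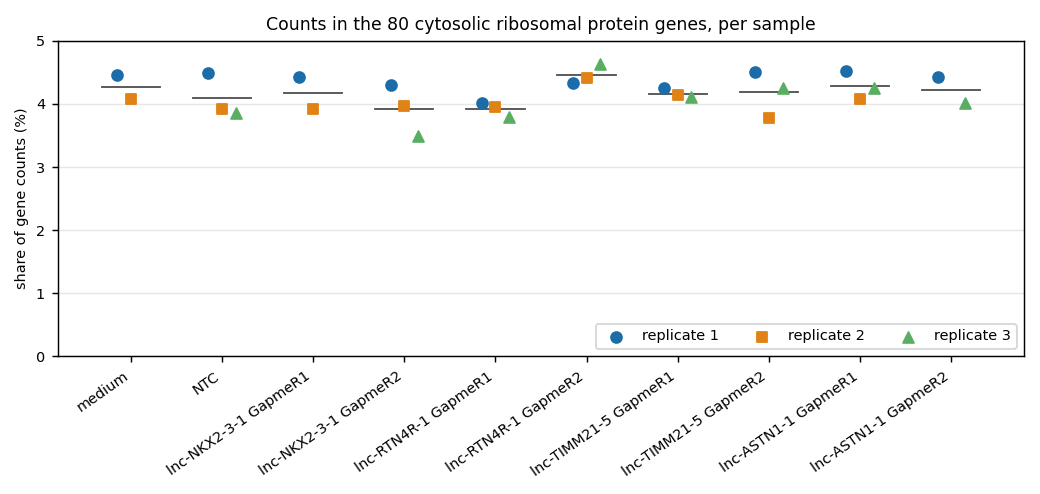
Share of all counts held by the 80 ribosomal protein genes, in percent, in each of the 27 samples by treatment group, with the replicate number shown by the marker and the group mean by a line. Replicate 1 lay between 4.01% and 4.52%, and lnc-RTN4R-1 GapmeR2 is the group in which replicates 2 and 3 did not lie below it.

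The members differed widely in level. Levels were compared as CPM per kilobase of coding sequence, since the transcripts differ in length, with coding lengths from 75 to 1281 bases and a median of 462. Counts cover untranslated regions as well, so this measure can raise genes whose coding sequence is a small part of the transcript. The median over the 78 tested members was 1032. RPLP1 was highest, with a mean of 2929 CPM per coding kilobase over the 27 samples (2162 to 3472). It encodes a protein of the acidic stalk of the large subunit, which recruits elongation factors. RPS6, a small subunit protein phosphorylated downstream of mTOR, followed with 2217 (1807 to 2434), and RPS12 with 2168 (1720 to 2621). The ranges of these 3 genes overlapped. In CPM without division by length, RPS6 (1656) and RPL4 (1652) had the highest means, and RPLP1 had 1002.

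Among members named by role, the other stalk proteins stood at 1083 CPM per coding kilobase for RPLP0 and 1851 for RPLP2. Without division by length RPLP0 and RPLP1 had similar means, of 1030 and 1002 CPM, and RPLP2 had 639. The order of the stalk genes thus depends on the length used. RPL5 (1190) and RPL11 (1582) form a particle with the 5S ribosomal RNA. RPL10 (1463) joins the large subunit late and RPL3 (1083) lies near the peptidyl transferase centre. RPL22 (371), which is deleted in some T-cell leukemias, was well below the median. In the small subunit RPS19 (1896), RPS27A (1279, made as a fusion with ubiquitin) and RPS4X (1235) lay above the median. RPS14 (760), RPSA (367) and RPS26 (284) lay below it. RPS19, RPS26, RPS14, RPL5 and RPL11 are known as genes of inherited or acquired anaemias of ribosome assembly.

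Several of the low values came from genes whose reads can be lost in counting. RPL17 was lowest of the tested members at 17.6 CPM per coding kilobase, RPS10 stood at 18.6 and RPL36A, next above them, at 88.4. Each lies inside an annotated read-through gene on the same strand, and the study counted a read only where it overlapped a single gene. The canonical transcript of RPL17 shared 96.9% of its bases with RPL17-C18orf32, that of RPS10 84.0% with RPS10-NUDT3 and that of RPL36A 43.8% with RPL36A-HNRNPH2. The annotation also held 1586 pseudogenes named for 77 of the members. RPL21 (133), RPL23A (91) and RPL7A (80) had the most, and stood at 544, 539 and 1121 CPM per coding kilobase. RPSA had 73, RPL36A 52, RPL17 49 and RPS10 14. Reads that fit a gene and a pseudogene equally well map to several places and were not counted. Levels of these genes are therefore uncertain. RPL39L, the copy of RPL39, stood at 153 CPM per coding kilobase, against 194 for RPL39. No pseudogene was named for RPL39L and 19 were for RPL39.

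**Figure D2:**
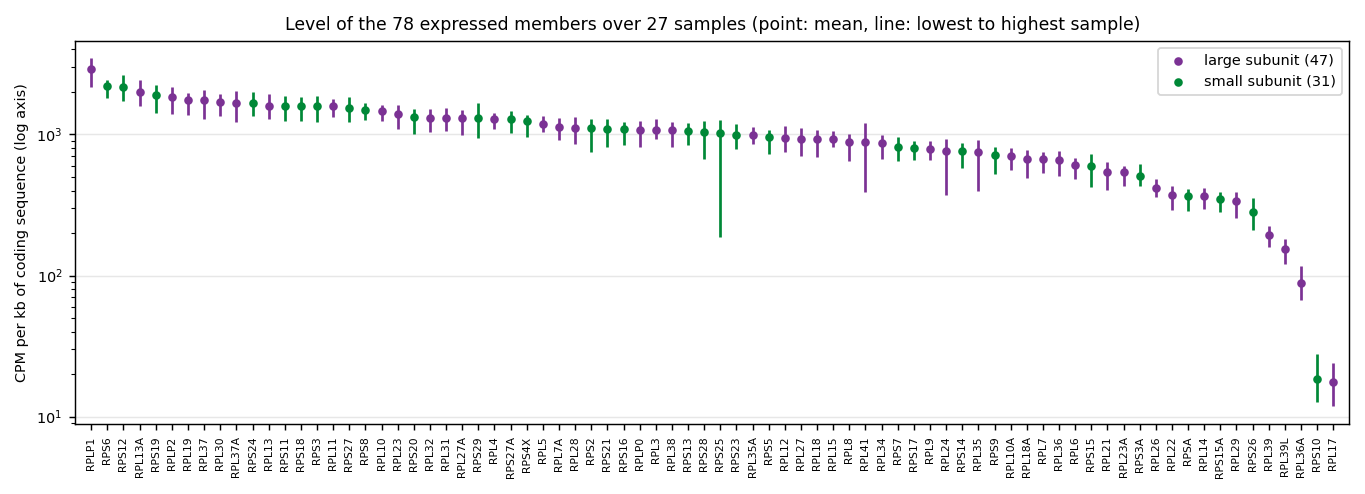
Level of each tested member in CPM per kilobase of coding sequence (log axis), as the mean over 27 samples with a line from the lowest to the highest sample, with large and small subunit genes shown apart. RPLP1 is highest at 2929, and RPL17 and RPS10, which lie inside read-through genes, are lowest at 17.6 and 18.6.

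The members moved together from sample to sample. Over the 27 samples the median correlation between pairs of members on the log2 CPM scale was 0.795, and it was 0.789 after the means of groups and replicate numbers had been removed. These samples share libraries and normalisation, so the values are descriptions. The first principal component of the members held 52.2% of their variance and the second 21.7%. For 73 of the 78 members the correlation with the mean of the others was over 0.5. RPL32, a large subunit protein, had the highest at 0.98. RPS25 (0.074), RPL24 (0.187) and RPL36A (0.325) had the lowest. RPS25 also had the largest SD of log2 CPM (0.69), against 0.095 for RPL4. The SD of RPL24 was 0.36, close to the 0.37 of RPL41, which was named after its values were seen and has the shortest coding sequence of the members (75 bases).

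The treatment comparisons asked whether any GapmeR changed the ribosomal protein genes. With both GapmeRs of a lncRNA pooled against the 5 controls, no member was called changed at an edgeR adj. p-value under 0.05. Over all genes tested, 0.0% were called with the lnc-NKX2-3-1 pair, 0.476% with the lnc-RTN4R-1 pair, 0.00665% with the lnc-TIMM21-5 pair and 0.0136% with the lnc-ASTN1-1 pair. At an unadjusted p-value under 0.05 there were 1, 0, 0 and 1 members in this order, and DESeq2 called 0 in each. The median log2 fold change of the 78 members was -0.043, 0.022, -0.005 and 0.028. Single GapmeRs were then set against the controls, and against the second GapmeR to their target. Few members were called, and the strongest calls were single genes that stood out from the other members in the samples of a single GapmeR.

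RPS25 was far lower with lnc-NKX2-3-1 GapmeR1 than in any other sample. RPS25 (ENSG00000118181, chr11:119015712-119018691, minus strand, GRCh38) encodes a small subunit protein that is known to be needed for translation from some viral internal ribosome entry sites and is not essential in many cell types. Its levels with GapmeR1 were 72.9 and 70.6 CPM. The 5 controls had 344.6 to 474.1 CPM with a mean of 415 ± 54.7 (SD, n = 5), and the 20 samples of the other GapmeRs 322.5 to 475.7. The groups did not overlap. The log2 fold change against the controls was -2.53 ± 0.13 (SE, edgeR adj. p-value 6.46e-08). Against lnc-NKX2-3-1 GapmeR2, whose samples had 455.6, 382.2 and 322.5 CPM, it was -2.43 ± 0.14 (SE, edgeR adj. p-value 6.77e-06). Neither call was lost when any single sample was left out. In the comparison with the controls 17.6% of all genes were called (7.41% higher and 10.2% lower) and in that between both GapmeRs 13%. Of the 78 members RPS25 and RPL36A were called against the controls and RPS25 between the GapmeRs, a smaller share than over all genes.

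RPL36A was the other call with lnc-NKX2-3-1 GapmeR1. RPL36A (ENSG00000241343, chrX:101390824-101396155, plus strand) encodes a large subunit protein near the exit site for transfer RNA, and its reads are shared with the read-through gene named above. GapmeR1 samples had 36.6 and 34.3 CPM and the controls 21.4 to 28.7 CPM, and these groups did not overlap. Levels as high were seen in other treated samples, namely 37.0 CPM in lnc-RTN4R-1 GapmeR2 replicate 1 and 34.8 CPM in lnc-TIMM21-5 GapmeR1 replicate 1. The log2 fold change was 0.47 ± 0.11 (SE, edgeR adj. p-value 0.0109), and the call was lost without either of the GapmeR1 samples (adj. p-value 0.123 without replicate 1 and 0.0681 without replicate 2, with the remaining sample assumed to vary like the controls).

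RPL24 was lower with lnc-ASTN1-1 GapmeR1. RPL24 (ENSG00000114391, chr3:101681091-101686733, minus strand) encodes a large subunit protein that joins late and reaches towards the small subunit. Its levels were 196.0, 177.6 and 175.5 CPM, against 335.1 to 421.5 CPM in the controls (mean 383 ± 35.9, SD, n = 5) and 419.7 and 365.4 CPM with lnc-ASTN1-1 GapmeR2. No sample of any other group fell below 303.9 CPM. The log2 fold change was -1.06 ± 0.09 (SE, edgeR adj. p-value 6.43e-05) against the controls, where 0.718% of all genes were called, and -1.10 ± 0.09 (SE, edgeR adj. p-value 0.00555) against GapmeR2, where 0.146% were. RPL24 was the single member called in each. Against the controls the call held without any single sample. Against GapmeR2 it was lost without GapmeR1 replicate 2 (adj. p-value 0.0820).

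RPL35 was lower with lnc-TIMM21-5 GapmeR2. RPL35 (ENSG00000136942, chr9:124857880-124861981, minus strand) encodes a large subunit protein at the exit of the peptide tunnel. Its levels were 198.6, 172.9 and 146.0 CPM for replicates 1, 2 and 3. Controls had 316.4 and 309.4 CPM in medium and 301.6, 290.4 and 228.5 CPM in NTC, and lnc-TIMM21-5 GapmeR1 had 307.2, 303.0 and 251.9 CPM. All 3 samples of GapmeR2 lay below every other sample of the series, of which the lowest was lnc-NKX2-3-1 GapmeR2 replicate 3 with 206.5 CPM. The log2 fold change against the controls was -0.74 ± 0.12 (SE, edgeR adj. p-value 0.0418), and RPL35 was the single member called where 0.0593% of all genes were. This call was lost with NTC as the sole control (adj. p-value 0.356) and without 6 of the 8 samples taken in turn (adj. p-value up to 0.344). With the replicate number as a block it was -0.70 (adj. p-value 3.25e-13), where 0.29% of all genes were called lower. Between GapmeR1 and GapmeR2 no member was called without the block (edgeR), where 0.0784% of all genes were, and RPL35, with a log2 fold change of 0.74, was the 1 member with an unadjusted p-value under 0.05 and the 1 called by DESeq2. With the block RPL35 was higher with GapmeR1 (0.74 ± 0.04, SE, adj. p-value 9.69e-13, 2 residual degrees of freedom), where 0.248% of all genes were called higher.

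**Figure D3:**
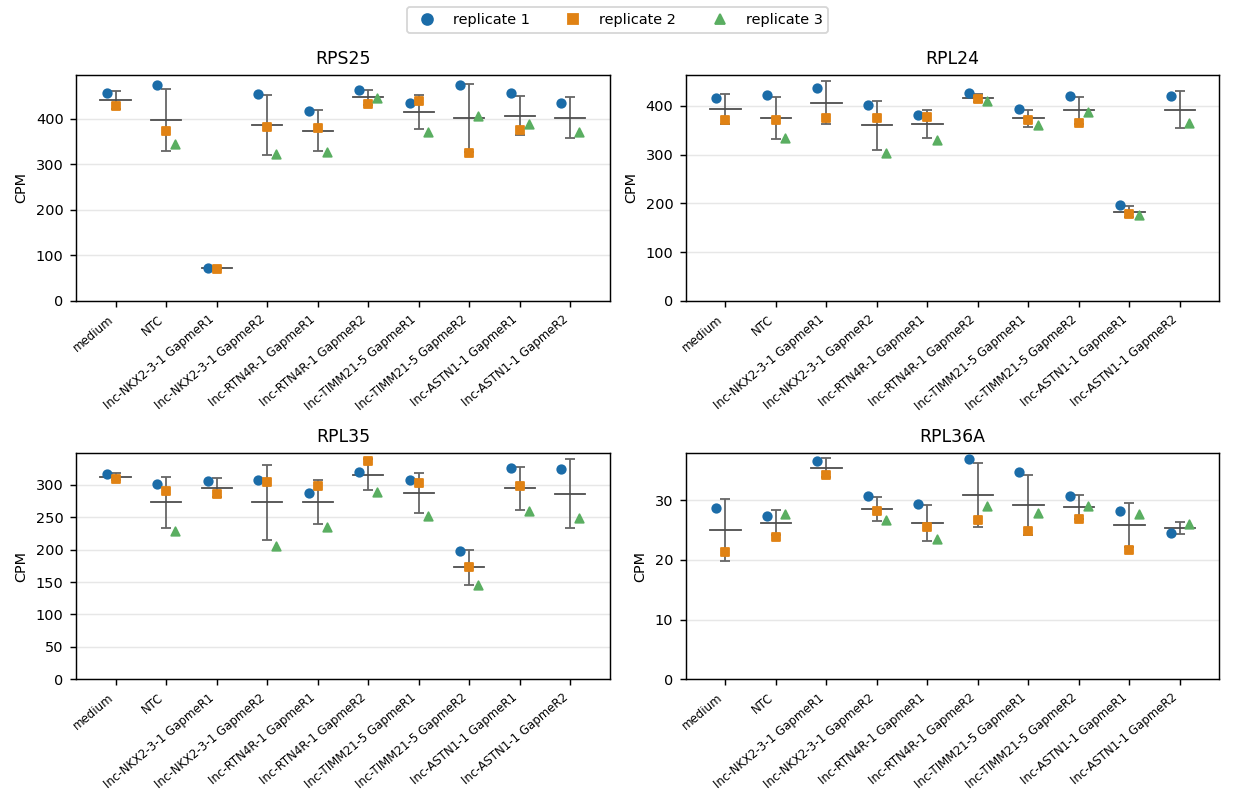
Level in CPM of RPS25, RPL24, RPL35 and RPL36A in every sample by treatment group, with the replicate number shown by the marker, the group mean by a line and the SD by the error bar. RPS25 lies at 72.9 and 70.6 with lnc-NKX2-3-1 GapmeR1, RPL24 between 175.5 and 196.0 with lnc-ASTN1-1 GapmeR1 and RPL35 between 146.0 and 198.6 with lnc-TIMM21-5 GapmeR2, each below all other samples, whereas the high RPL36A samples overlap with other groups.

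Since GapmeRs act by base pairing, the sequences of the 3 GapmeRs are shown with the stretch of the transcript that pairs best. The stretch was taken from the canonical transcript (GENCODE v44) as the one with the longest run of consecutive Watson-Crick pairs. Capitals mark paired bases. The GapmeR and the site are both written from 5' to 3', so that they pair antiparallel. A run is a description of letters, and its part in the result was not tested.
lnc-NKX2-3-1 GapmeR1: tGCTCTGTGCggattg
RPS25 site: ttcaaaGCACAGAGCt
lnc-ASTN1-1 GapmeR1: TAATCTGCCAGgagtG
RPL24 site: CtaaaCTGGCAGATTA
lnc-TIMM21-5 GapmeR2: GTCACTTTaattttGC
RPL35 site: GCgtcgccAAAGTGAC

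The RPS25 site lay at chr11:119015908-119015923 (minus strand, GRCh38), in coding sequence of exon 4 of 5, with a run of 9 bases. A run as long was found in 3 of the 78 tested members (3.85%) and in 1191 of 16024 genes searched (7.43%). The other members with it, RPL14 and RPS14, had log2 fold changes of -0.03 and 0.04 with this GapmeR and were not called. The RPL24 site lay at chr3:101681123-101681138 (minus strand), in exon 6 of 6 and partly in coding sequence, with a run of 11 bases and 12 of 16 bases paired. Runs of this length were found in 3 members (3.85%) and 167 of 16024 genes (1.04%). The other members were RPL11, at a log2 fold change of 0.04 ± 0.08 (SE), and RPS15A, at 0.03 ± 0.09 (SE). The RPL35 site lay at chr9:124861449-124861464 (minus strand), in coding sequence of exon 2 of 4, with a run of 8 bases and 10 of 16 paired. Runs this long were common, in 22 of 78 members (28.2%) and 6510 of 16024 genes (40.6%). The longest run of this GapmeR in any member was 10 bases, in RPL4, which had a log2 fold change of 0.02 ± 0.08 (SE). RPL14 shares a run of 13 bases with lnc-NKX2-3-1 GapmeR2, where it had a log2 fold change of -0.12 ± 0.10 (SE, edgeR adj. p-value 0.913). Introns and other transcripts of these genes were not searched, and the part of any run was not tested.

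Both GapmeRs against lnc-RTN4R-1 left the members apart from each other, by small amounts and in nearly all genes. Against the controls, 74 of the 78 members had a negative log2 fold change with GapmeR1 (median -0.086) and 77 a positive one with GapmeR2 (median 0.124), while the medians of all genes tested lay within 0.01 of 0. These comparisons share their controls. No member was called in either, where 1.59% and 6.62% of all genes were, and at an unadjusted p-value under 0.05 there were 1 and 8 members. Of all genes, 1452 of 15186 and 3120 of 15050 had such a p-value, which is a larger share than of the members. DESeq2 called 0 and 1 members, where it called 2.11% and 8.55% of all genes. The directions did not hold in every replicate when set against NTC of the same number. GapmeR2 was above NTC in 29, 76 and 77 of the 78 members in replicates 1, 2 and 3. The median differences were -0.029, 0.209 and 0.325 in log2 CPM. GapmeR1 was below NTC in 73, 28 and 40 members, with medians of -0.150, 0.027 and -0.001. Set directly against each other, GapmeR1 was lower than GapmeR2 in 77 of 78 members, with a median log2 fold change of -0.203. RPS19, a small subunit protein needed to mature the 18S ribosomal RNA, was the single member called (edgeR), where 5.92% of all genes were. RPS19 (ENSG00000105372, chr19:41860255-41872925, plus strand) had 795.5, 800.6 and 731.0 CPM with GapmeR1 and 933.8, 979.1 and 959.4 CPM with GapmeR2, with no overlap. The log2 fold change was -0.30 ± 0.07 (SE, edgeR adj. p-value 0.0391), and the call was lost without 5 of the 6 samples taken in turn (adj. p-value up to 0.169). At an unadjusted p-value under 0.05 there were 57 of 78 members, beside 3102 of 14904 genes, and DESeq2 called 21 members, where it called 7.77% of all genes.

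With the replicate number as a block, 26 members were called higher with lnc-RTN4R-1 GapmeR2 than in the controls, where 12% of all genes were called higher. The largest were RPL17 (0.30), RPL36A (0.26) and RPS26 (0.24), 2 of which lie in read-through genes, and RPS19 followed with 0.24. Between GapmeR1 and GapmeR2 the block gave 75 members lower and 1 higher, where 15.3% of all genes were called lower and 15.6% higher. The largest were RPS10 (-0.52), RPL17 (-0.33) and RPS19 (-0.30). This fit had 2 residual degrees of freedom. The block also gave RPL30 as lower with GapmeR1 than in the controls (-0.14, adj. p-value 0.0306), where 3.42% of all genes were called lower.

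The difference between GapmeR1 and GapmeR2 could also be seen by replicate number. GapmeR1 was below GapmeR2 in 76, 76 and 77 of the 78 members in replicates 1, 2 and 3, with median differences of -0.132, -0.179 and -0.323 in log2 CPM, and in 75 members in every replicate. RPL39L was above in all of them, by 0.28, 0.17 and 0.11. It is a copy of RPL39 with high levels in testis and in many tumours, and had 24.8, 25.5 and 23.2 CPM with GapmeR1 and 20.4, 22.7 and 21.4 CPM with GapmeR2. RPS26 in replicate 1 and RPL41 in replicate 2 were the other exceptions, each by 0.012. Beside this, mitochondrially encoded genes held 4.93%, 4.95% and 5.05% of counts with GapmeR2 and 4.56%, 4.72% and 4.28% with GapmeR1. The summed level of 4 myeloid markers was 309 to 477 CPM with GapmeR2, against 92.9 to 137 with GapmeR1 and 99.1 to 156 in the controls. Most of it was MPO (291 to 445 CPM against 84.8 to 132 in the controls), with CSF3R at 17.2 to 30.8 CPM and LYZ and CD14 under 1. The fold changes of lnc-RTN4R-1 GapmeR2 against the controls rose with the GC content of the coding sequence in the members (Spearman 0.51 over 78 genes) and in all coding genes tested (0.41 over 12030). The part of these in the difference between the lnc-RTN4R-1 GapmeRs was not tested.

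**Figure D4:**
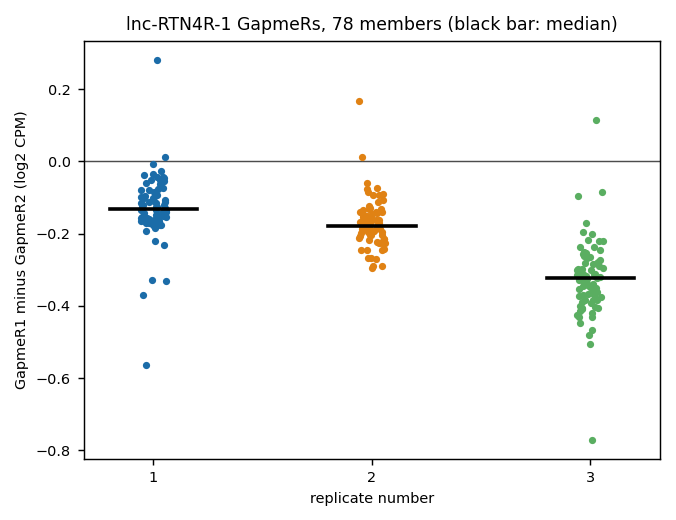
Difference in log2 CPM between lnc-RTN4R-1 GapmeR1 and GapmeR2 for each of the 78 tested members, by replicate number, with the median of each as a black bar. The medians are -0.132, -0.179 and -0.323, and RPL39L is above 0 in all 3 replicates.

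In some comparisons without the lnc-RTN4R-1 GapmeRs most members also shifted in a single direction by small amounts. With lnc-NKX2-3-1 GapmeR2, 75 of 78 members had a negative log2 fold change, with a median of -0.107, and no member was called (edgeR), where 0.0% of all genes were, while 0 had an unadjusted p-value under 0.05 and DESeq2 called 0. With the block 4 members were lower, namely RPL3 (-0.15), RPL19, RPL4 and RPL7A, where 1.28% of all genes were called lower. With lnc-NKX2-3-1 GapmeR1, 68 were positive with a median of 0.070, and the direct comparison of both GapmeRs gave a median of 0.177. This GapmeR has no replicate 3, and with replicates 1 and 2 alone (chosen after the data were seen) the medians were 0.030, with 49 positive, and 0.074, with 63 positive. With the block they were 0.033 and 0.076. With lnc-TIMM21-5 the medians were -0.006 for GapmeR1 and -0.002 for GapmeR2, and with lnc-ASTN1-1 they were 0.045 for GapmeR1 and 0.005 for GapmeR2. In the same order they were 0.022, 0.015, 0.073 and 0.016 with the block. Against NTC alone they were 0.028, 0.038, 0.087 and 0.047, with 59, 70, 73 and 69 members positive. For lnc-ASTN1-1 GapmeR2, replicates 1 and 3 alone (chosen after the data were seen) gave -0.025, with 26 positive. No member was called with lnc-TIMM21-5 GapmeR1 (0.079% of all genes) or lnc-ASTN1-1 GapmeR2 (0.013%), while 0 had an unadjusted p-value under 0.05 in either and DESeq2 called 0. NTC against medium, the comparison that shows what a GapmeR without a target does, had a median of -0.099 with 74 of 78 members negative. NTC has a replicate 3 and medium has none, and with replicates 1 and 2 alone, a choice made after the data were seen, the median was -0.040 with 65 negative. By number the median difference was 0.007 in replicate 1 and -0.088 in replicate 2. No gene was called there (edgeR, 0.0%), while 3 members had an unadjusted p-value under 0.05 and DESeq2 called 0 members. The mean log2 CPM of the members had an SD of 0.122 within groups, and the medians of the 8 single GapmeRs against the controls lay between -0.107 and 0.124.

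Without the replicate block, the members named by role were called in none of the 8 single comparisons with the controls. With it, RPS26, RPS19, RPS14, RPS27A and the stalk genes RPLP0, RPLP1 and RPLP2 were among the members higher with lnc-RTN4R-1 GapmeR2, and RPL3 was lower with lnc-NKX2-3-1 GapmeR2. The values that follow are without the block. The stalk genes ranged from -0.14 ± 0.10 (SE, RPLP0, lnc-NKX2-3-1 GapmeR2) to 0.17 ± 0.08 (SE, RPLP0, lnc-RTN4R-1 GapmeR2). RPL5 ranged from -0.12 to 0.10 and RPL11 from -0.10 to 0.10. RPS26 had its highest value, 0.22 ± 0.09 (SE), with lnc-RTN4R-1 GapmeR2, as did RPS19 with 0.21 ± 0.08 (SE). RPL39 ranged from -0.12 with lnc-TIMM21-5 GapmeR1 to 0.21 with lnc-ASTN1-1 GapmeR2, and RPL39L from -0.13 to 0.06. The smallest adj. p-value among these genes was 0.170, for RPS19.

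**Figure D5:**
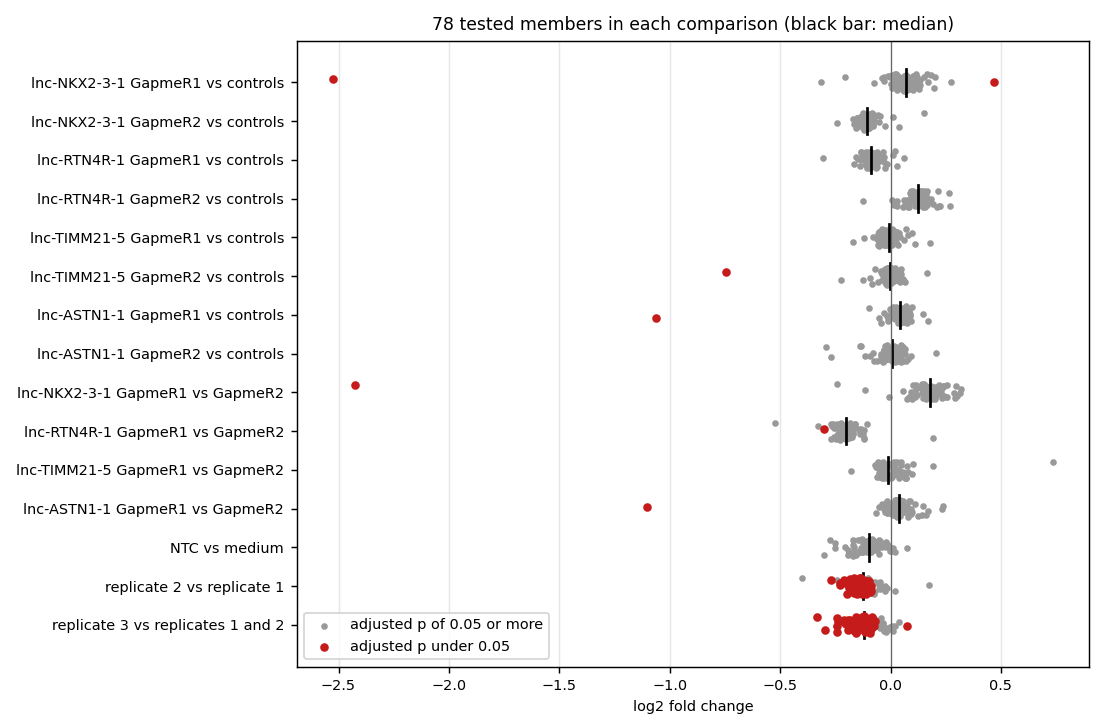
Log2 fold change (x axis) of each of the 78 tested members, 1 point a member, in each comparison of single groups or replicate numbers (rows), with members at an adj. p-value under 0.05 in red and the median as a black bar. The red points far to the left are RPS25, RPL24 and RPL35, and against the controls the medians lie between -0.107 and 0.124.

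The members also differed between replicate numbers. The share of counts in members was 4.01% to 4.52% in replicate 1 (median 4.42%, n = 10), 3.78% to 4.41% in replicate 2 (median 3.97%, n = 9) and 3.49% to 4.63% in replicate 3 (median 4.06%, n = 8). Within groups, replicate 2 was lower than replicate 1 in 8 of 9 groups and replicate 3 lower than replicate 1 in 7 of 8, with lnc-RTN4R-1 GapmeR2 the exception in both. That group had 4.33%, 4.41% and 4.63%. Replicate 3 was lower than replicate 2 in 4 of 7 groups.

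In a fit of all 27 samples with the group as a term, replicate 2 was lower than replicate 1 in 56 of 78 members and higher in 0 (edgeR adj. p-value under 0.05). Of all genes, 10.8% were called lower and 12.7% higher. No member was called higher by DESeq2 either, and the 2 members above 0, RPS10 (0.17) and RPS2 (0.02), had unadjusted p-values of 0.158 and 0.641. The median log2 fold change was -0.124, with 76 members negative. Among the members called, the largest were RPL36A (-0.27, adj. p-value 3.57e-05), RPS29 (-0.23), RPS3A (-0.23), RPL22 (-0.21) and RPS25 (-0.20). RPL41 (-0.40) and RPS28 (-0.24), named after their values were seen, had larger changes and were not called. By subunit, 24 of 31 small subunit members and 32 of 47 large subunit members were lower. RPL5 and RPL11 both had a log2 fold change of -0.16 and were called. Of the stalk genes, RPLP2 was called (-0.11) and RPLP0 (-0.07) and RPLP1 (-0.09) were not.

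Replicate 3 was lower than the mean of replicates 1 and 2 in 55 members and higher in 1, where 26.0% of all genes were called lower and 28.1% higher. The median was -0.119, with 73 members negative. Of the members called, the largest were RPL35 (-0.33, adj. p-value 2.33e-12), RPS2 (-0.30), RPS21 (-0.24), RPL21 (-0.24) and RPL39L (-0.24). RPL3 was the single member higher (0.07, adj. p-value 0.0237). Here 26 of 31 small subunit and 29 of 47 large subunit members were lower. The stalk genes were all lower, with log2 fold changes of -0.15 for RPLP0, -0.19 for RPLP1 and -0.18 for RPLP2. RPL5 was at 0.02 ± 0.02 (SE) and RPL10 at -0.04 ± 0.03 (SE), and neither was called. RPS26 (-0.24), RPS27A (-0.16), RPS19 (-0.16), RPSA (-0.13) and RPS4X (-0.13) were lower. Without lnc-NKX2-3-1 GapmeR2 replicate 3, which stood apart in its reads, 42 members were lower and 2 higher.

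The fold changes between replicates varied with coding length. The fold change of replicate 2 against replicate 1 rose with coding length across the members (Spearman 0.43 over 78 genes) and across all coding genes tested (0.23 over 12476), as did that of replicate 3 against the others (0.31 and 0.19). Replicates were treated on different days, and whether a number marks the same day in every group is not given in the sources used here. The part of coding length in these differences was not tested.

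Other genes of translation were set beside the members. Of 78 genes for mitochondrial ribosomal proteins, which are encoded in the nucleus and are not TOP messenger RNAs, 65 were lower in replicate 3 (median -0.190), with MRPS28 (-0.54) and MRPL11 (-0.41) the largest. In replicate 2 against replicate 1, 5 were lower and 2 higher, with a median of 0.009. Of all genes, 26.0% were called lower and 28.1% higher in replicate 3. Between replicates 2 and 1 these shares were 10.8% and 12.7%. The same shares stand beside the lists that follow. Of 17 other TOP messenger RNAs of translation tested, 12 were lower in replicate 2 than in replicate 1, with TPT1 (-0.25), which encodes a growth-related protein that binds calcium, and the elongation factor gene EEF1B2 (-0.12) the largest. In replicate 3, 6 were higher and 6 lower. EEF2 (0.13), the translocation factor, and TPT1 (0.12) rose, and NPM1 (-0.28), a nucleolar chaperone, and HNRNPA1 (-0.17) fell. FAU, which encodes the small subunit protein RPS30 as a fusion and so lies outside the naming rule, was lower in replicate 3, with a log2 fold change of -0.24. Of 5 ribosomal protein paralogs outside the rule, RPL26L1 (-0.45) and RPL36AL (-0.16) were lower in replicate 3 and RPL22L1 (-0.28) and RPL36AL (-0.09) in replicate 2. Whether the lists differed from each other was not tested.

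In the treatment comparisons these lists had few calls. With lnc-NKX2-3-1 GapmeR1 against the controls, 7.41% of all genes were called higher and 10.2% lower. There RPL7L1 was higher (0.29) and EIF3H, a subunit of initiation factor 3, was lower (-0.27). Of the mitochondrial ribosomal genes 3 were lower, MRPS25 (-0.69) and MRPS18C (-0.50) the largest, and MRPL50 was higher (0.24). RPL7L1 was also higher in GapmeR1 than in GapmeR2 (0.35), and MRPS25 (-0.58) and MRPS18C (-0.47) were lower there too.

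The start sites of the members were examined for the TOP motif, here a C at the RefSeq start followed by 4 bases that are each C or T. Of the 80 members, 63 had an entry among the RefSeq start sites (GRCh38.p14), and 42 of these (66.7%) had the motif on the sense strand. Of all 35116 starts 1429 (4.07%) had it, of the other TOP messenger RNAs 10 of 12 (83.3%) and of the mitochondrial ribosomal genes 5 of 69 (7.25%). A start that lacks it may be an annotated start other than the one used in these cells. The start windows of the 5 members called in the treatment comparisons are printed, from 5 bases before the start to 15 from it, with the pyrimidine run that begins at the start in capitals. All 5 have the motif.
RPS25: gcttcCTTTTTgtccgacat
RPL24: tctctCTTTCTTTTCgccat
RPL35: acttcCTCTTTCCCTCggag
RPL36A: ggtttCTTTCTTTCCgcgcc
RPS19: tcgttCCCTTTCCCCTggct

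These windows lie at chr11:119018329-119018348 (minus strand) for RPS25, chr3:101686704-101686723 (minus) for RPL24, chr9:124861943-124861962 (minus) for RPL35, chrX:101391006-101391025 (plus) for RPL36A and chr19:41860250-41860269 (plus) for RPS19.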

How the data were processed

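RNA sequencing of 27 samples of REH cells was analysed. The authors aligned reads to hg38 with STAR, and the deposited values are raw counts per gene, with no normalisation, of uniquely mapped reads that overlapped a single gene. Of the 3 count columns, column 4 was used, which held about 95.3% of the counts of both strand columns. The annotation release is not given in the sources used here. The labels describe ribodepleted RNA and the methods poly-A selection, and this was not resolved. Symbols came from GENCODE v44, which matched 56434 of 60619 identifiers. Depth was 14627110 to 22750945 counts per sample.

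Tests were run in R (4.3.3) with edgeR (4.0.16), by its quasi-likelihood fit with robust estimation, over all genes passing filterByExpr (minimum count 10, minimum total 15), with TMM normalisation and Benjamini-Hochberg adjustment. An adj. p-value under 0.05 is called changed. A fit held only the samples it compared and had no covariate, except that replicate numbers were compared in all 27 samples with the group as a term. Log2 CPM used a prior count of 2. The fits were tested on simulated data with known changes. CPM uses TMM library sizes, and a level per kilobase divides by the canonical coding length. The members were fixed by their names and not by a measured value, though they and the other lists were chosen with earlier results of these data known. The rule for naming genes took the members called with the largest change (up to 3 in each direction, or 5 for replicate numbers), members of known role, the 3 highest and 3 lowest in level, the 3 least correlated with the others, and up to 2 per direction called in each other list.

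Replicate numbers come from the labels. Deviations from the group means correlated at 0.187 or more between samples of the same number in every comparison with 3 shared numbers, so the numbers pair the samples there, and blocked values are given beside a result where they change it. Alternatives were DESeq2 (1.42.0), RLE size factors, no low-count filter, unstranded counts, NTC as sole control, a single fit of all samples, the replicate block, each sample left out and, added after the data were seen, replicates 1 and 2 or 1 and 3 alone. Start sites were taken from RefSeq (GRCh38.p14). GapmeR sequences came from the tables of the study. Protein sequences were not used here. The result of 1 gene in another list is not reported here.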

Additional observations from a re-analysis of the deposited data

Results flagged for a closer look

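In 3 members the effects of both GapmeRs against the same lncRNA differed by a direct test in edgeR without the replicate block. RPS25 was lower with lnc-NKX2-3-1 GapmeR1 than with GapmeR2 (log2 fold change -2.43, edgeR adj. p-value 6.77e-06). RPL24 was lower with lnc-ASTN1-1 GapmeR1 than with GapmeR2 (-1.10, edgeR adj. p-value 0.00555). RPS19 was lower with lnc-RTN4R-1 GapmeR1 than with GapmeR2 (-0.30, edgeR adj. p-value 0.0391). With the block, 75 members were lower and 1 higher with lnc-RTN4R-1 GapmeR1 than with GapmeR2. Of all genes, 15.3% were called lower and 15.6% higher there. RPL35 was then the 1 member called between the lnc-TIMM21-5 GapmeRs, where 0.503% of all genes were. DESeq2 without the block called 21 and 1 members in these comparisons, and 7.77% and 0.0862% of all genes.

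Single samples lay far from the others of their set in 5 of 105 sets examined by Dixon's criterion. The sets share samples and the members move together, so this count cannot be set against a rate given by chance. RPL35 in NTC replicate 3 was at 228.5 CPM, whereas the nearest of the other controls was at 290.4. The remaining sets were all lnc-NKX2-3-1 GapmeR2 replicate 3 among the 5 samples of the lnc-NKX2-3-1 GapmeRs. It had 206.5 CPM of RPL35 (nearest 285.4), 739.4 of RPLP1 (nearest 1032.8), 483.1 of RPLP2 (nearest 633.2) and 72.6 of RPS26 (nearest 98.9). The same sample had the lowest share of counts in members (3.49%), the most unmapped reads (4.53%) and the fewest reads assigned to a gene (71.5%), and the part of these was not tested.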

How the results depend on the processing

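The number of members called changed was recomputed under each alternative. It was within 1.5 times the number reported, or equally 0, in 101 of 122 recalculations that kept all samples. The median log2 fold change of the members moved by less than the replicate spread (SD 0.122) in all 117. That spread is about as large as most of the medians, so this cannot show that they were stable. With the block the median went from 0.177 to 0.076 between the lnc-NKX2-3-1 GapmeRs and from -0.099 to -0.040 for NTC against medium. For lnc-TIMM21-5 GapmeR1 against the controls it went from -0.006 to 0.022. In the other recalculations of the number called, the count was as follows, and the cause was not tested. In a single fit of all 27 samples 1 member was lower with both lnc-NKX2-3-1 GapmeRs and 1 with both lnc-ASTN1-1 GapmeRs. DESeq2 called 1 with lnc-RTN4R-1 GapmeR2 against the controls, 21 between the lnc-RTN4R-1 GapmeRs and 1 between the lnc-TIMM21-5 GapmeRs. With NTC as sole control, 0 were called with lnc-TIMM21-5 GapmeR2. With no low-count filter 5 were called between the lnc-NKX2-3-1 GapmeRs, 6 between those to lnc-RTN4R-1 and 1 between those to lnc-TIMM21-5, and unstranded counts gave 2 between those to lnc-RTN4R-1. Added after the data were seen, replicates 1 and 2 alone gave 2 between the lnc-NKX2-3-1 GapmeRs, and replicates 1 and 3 alone 0 between the lnc-ASTN1-1 GapmeRs (RPL24 -1.08, adj. p-value 0.082).

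With the replicate block, where the numbers pair the samples, the count was 4 with lnc-NKX2-3-1 GapmeR2, 1 with lnc-RTN4R-1 GapmeR1, 26 with lnc-RTN4R-1 GapmeR2, 76 between the lnc-RTN4R-1 GapmeRs and 1 between the lnc-TIMM21-5 GapmeRs. Whether the numbers pair the samples was not settled for comparisons with 2 shared numbers. There the block gave 8 with lnc-NKX2-3-1 GapmeR1 (36.4% of all genes), 39 between the lnc-NKX2-3-1 GapmeRs (41.8%), 11 between the lnc-ASTN1-1 GapmeRs (4.29%) and 3 between NTC and medium (1.53%), with 1 residual degree of freedom in the last 3. It moved no other count beyond 1.5 times.

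With each sample left out in turn, the count was 1 to 3 with lnc-NKX2-3-1 GapmeR1, 0 to 1 with lnc-TIMM21-5 GapmeR2, 1 to 2 between the lnc-NKX2-3-1 GapmeRs and 0 to 1 between the GapmeRs of each other lncRNA. It was 44 to 61 for replicate 3 and 41 to 66 for replicate 2. RPL39 in replicate 2 against replicate 1, which was not called (-0.015), ranged from -0.054 to 0.0065 and changed sign without lnc-TIMM21-5 GapmeR2 replicate 1 (0.0065), lnc-NKX2-3-1 GapmeR2 replicate 1 (0.0022), lnc-NKX2-3-1 GapmeR2 replicate 2 (0.0024) or lnc-RTN4R-1 GapmeR1 replicate 2 (0.0031). Depth limits what can be said of RPL3L and RPL10L, which had at most 4 counts.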

Other observations

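In some treatment comparisons the order of the members followed their coding length, although no more than 2 of them were called by edgeR without the block. With the block 4 members were lower with lnc-NKX2-3-1 GapmeR2 than in the controls, where 1.28% of all genes were. Between the lnc-TIMM21-5 GapmeRs the log2 fold change of GapmeR1 against GapmeR2 had a Spearman correlation of -0.61 with coding length over the 78 members and of 0.06 over the 12145 coding genes tested. With lnc-NKX2-3-1 GapmeR2 against the controls it was -0.52 over the members and 0.16 over 12065 coding genes, and with lnc-TIMM21-5 GapmeR1 -0.44 and -0.02 (12076 genes). The sign was the other way with lnc-ASTN1-1 GapmeR2 against the controls, at 0.38 over the members and 0.0014 over 12141 coding genes. Genes within a sample are not independent replicates and all these comparisons but that between GapmeRs share their controls, so the values are descriptions.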
